A study of Mus musculus with 16 samples.

Results

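A set of 9 genes that handle thyroid hormone or respond to it were followed in mouse thyroid glands. They are 9 of the 25611 rows of the gene count table, each found once by its gene symbol. The set holds the deiodinases *Dio1* and *Dio2*, the transporters *Slc16a10* and *Slc7a8*, the nuclear receptors *Thra* and *Thrb*, the hormone-binding protein *Crym*, and the hormone-responsive genes *Klf9* and *Thrsp*. All 9 were among the 16630 genes with enough counts to be tested. RNA-Seq was performed on thyroids of 16 female mice, 4 in each of 4 groups, WT and *Glis3*-Pax8Cre mice fed either a normal diet (ND, NIH-31) or a low iodine diet (LID, TD.95125). The mice were weaned at 3 weeks and were 1 month old, and the labels give C57BL/6 as the strain of all of them. *Glis3*-Pax8Cre mice carry the *Glis3* tm2Amj allele and Cre inserted in *Pax8*, which removes a zinc finger exon of *Glis3* in *Pax8*-expressing cells such as follicular cells, so cells that do not express *Pax8* keep an intact *Glis3*.

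The thyroid releases mostly the prohormone T4. Deiodinases take single iodine atoms off it, and the enzymes encoded by *Dio1* and *Dio2* make the active hormone T3. Both hormones cross membranes through transporters of the *Slc16* and *Slc7* families, T3 is held in the cytosol by mu-crystallin (*Crym*), and T3 acts through the nuclear receptors TRα (*Thra*) and TRβ (*Thrb*). *Klf9* and *Thrsp* are classic T3-induced genes, of brain and skin and of fat and liver. In follicular cells the pituitary hormone TSH, which rises when iodine is short, signals through cAMP.

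The libraries held 13892352 to 461077969 read pairs assigned to genes. Levels are given as CPM, counts set against the library size after TMM scaling. From 7.87% to 29.3% of these pairs came from *Tg*. Where no pair was seen, the level could still be up to 3 counts, which is 0.00651 to 0.216 CPM depending on depth, and this covers counting error alone. *Glis3* itself was at 45.2 to 85.8 CPM in WT(ND), 85.8 to 105 in *Glis3*-Pax8Cre(ND), 125 to 174 in WT(LID) and 119.5 to 204 in *Glis3*-Pax8Cre(LID). These counts cover the whole gene, so they do not check the deletion of 1 exon. The 6 follicular markers, among them *Tg*, *Tshr* and *Nkx2-1*, were all detected in every group. Thymocyte markers exceeded 10 CPM in sum in 5 mice, WT(ND) replicates 1 and 2, *Glis3*-Pax8Cre(ND) replicate 4, WT(LID) replicate 3 and *Glis3*-Pax8Cre(LID) replicate 4, with 1783 CPM in *Glis3*-Pax8Cre(ND) replicate 4 as the highest sum.

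In WT mice the LID moved most of the set down and *Dio1* up. Of the 9 genes, 1 rose (*Dio1*) and 6 fell (*Slc16a10*, *Slc7a8*, *Thra*, *Thrb*, *Klf9* and *Thrsp*) at an adjusted p under 0.05 in WT(LID) against WT(ND), by the quasi-likelihood test of edgeR, adjusted over all genes tested after Benjamini and Hochberg. Of all genes tested, 20.9% rose and 20.8% fell in that comparison. In *Glis3*-Pax8Cre(LID) against *Glis3*-Pax8Cre(ND), *Dio1* rose and *Slc7a8*, *Klf9* and *Thrsp* fell, 1 and 3 of 9, against 13.1% and 12.3% of all genes. Between genotypes on the ND, *Crym* was higher and *Thrb* and *Thrsp* were lower in *Glis3*-Pax8Cre mice, 1 and 2 of 9 against 10.3% and 9.25% of all genes. On the LID, *Dio1* was lower in *Glis3*-Pax8Cre mice, 1 of 9 against 15.4% of all genes. With all 16 mice and no block, 0 of the 9 were called higher there by edgeR or DESeq2, against 14.9% of all genes, and 0 were higher at an unadjusted edgeR p under 0.05. *Crym* was called higher there without replicate 3 of WT(LID) (adjusted p = 0.00162 by edgeR). *Thra* was called lower there without replicate 4 of *Glis3*-Pax8Cre(ND) or with the 8 LID mice fitted alone, and *Thrb* without replicate 3 of *Glis3*-Pax8Cre(LID). On the ND 3 of 9 became 1 without WT(ND) replicates 2 or 4 or *Glis3*-Pax8Cre(ND) replicate 3, and 5 without WT(ND) replicate 3. The diet effect differed between genotypes for *Dio1*, which was lower in the interaction, and for *Thrsp*, which was higher, 1 of 9 each against 7.41% and 4.43% of all genes. The median log2 fold change of the 9 genes was -0.70 in WT(LID) against WT(ND), where that of all genes was -0.03. It was -0.44 in *Glis3*-Pax8Cre(LID) against *Glis3*-Pax8Cre(ND), -0.41 between genotypes on the ND and -0.25 on the LID, where the medians of all genes were -0.03, 0.02 and 0.01. The comparisons share groups of mice, so they are not independent of each other. In whole glands fewer cells of a type and less RNA per cell cannot be told apart.

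**Figure D1:**
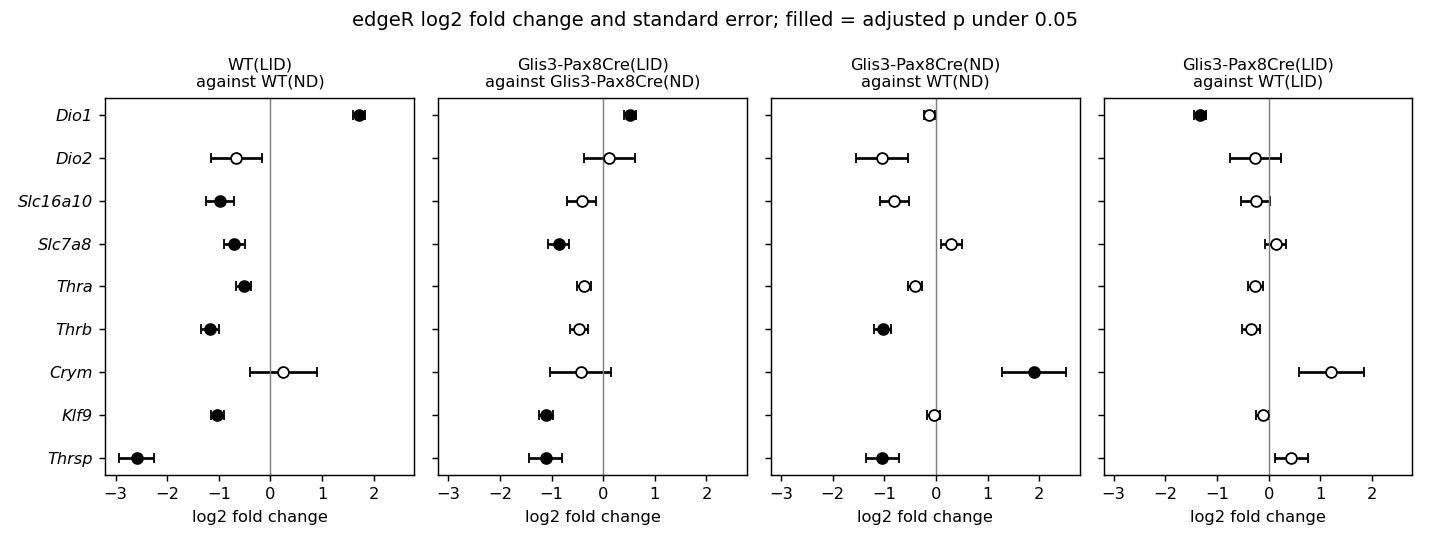
Log2 fold changes of the 9 genes (x axis, edgeR) with their standard errors (bars) in 4 comparisons, 1 panel each, with filled points at an adjusted p under 0.05. *Dio1* is the only filled point to the right of 0 in both diet comparisons and the only filled point between genotypes on the LID, at -1.33.

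The deiodinases behaved differently from each other. *Dio1* (Entrez 13370, mm10 chromosome 4, 107291465 to 107307168, minus strand) was at 369, 346, 314 and 350.2 CPM in replicates 1 to 4 of WT(ND), and the *Glis3*-Pax8Cre(ND) mice had 359, 296, 358 and 249.9 CPM. On the LID it stood at 1181, 1133, 1141 and 1074 CPM in WT mice and at 431, 495, 479 and 401 CPM in *Glis3*-Pax8Cre mice. Every WT(LID) mouse stood above every other mouse, every *Glis3*-Pax8Cre(LID) mouse stood above every ND mouse, and the ND groups overlapped. *Dio1* rose 3.28-fold in WT mice on the LID (log2 fold change 1.72 with a standard error (SE) of 0.11, adjusted p = 3.63e-08 by edgeR) and 1.43-fold in *Glis3*-Pax8Cre mice (0.52, SE 0.11, adjusted p = 0.00358). The difference between these changes was -1.20 (log2, with SE 0.16, adjusted p = 1.63e-04 for the edgeR interaction). *Dio1* was 2.51-fold lower in *Glis3*-Pax8Cre mice than in WT mice on the LID (adjusted p = 6.16e-07), while between ND groups the log2 fold change came to -0.13 (SE 0.11, adjusted p = 0.445).

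*Dio2* (Entrez 13371, chromosome 12, 90724552 to 90739037, minus strand) was low and varied between mice of a group. Replicates 1 to 4 had 14.1, 25.6, 10.5 and 20.1 CPM for WT(ND), 11.6, 9.57, 4.18 and 8.90 for *Glis3*-Pax8Cre(ND), 12.4, 11.8, 9.44 and 10.7 for WT(LID) and 6.87, 11.5, 16.9 and 1.74 for *Glis3*-Pax8Cre(LID). All 4 groups overlapped, and the coefficient of variation ran from 11.7% in WT(LID) to 69.9% in *Glis3*-Pax8Cre(LID). No comparison called it, by edgeR or by DESeq2, and its lowest unadjusted edgeR p was 0.0567, between genotypes on the ND (log2 fold change -1.04 with SE 0.50, adjusted p = 0.161). That comparison passed without *Glis3*-Pax8Cre(LID) replicate 4, the mouse at 1.74 CPM, which is in neither group of that comparison but shares its estimate of the spread (adjusted p = 0.0459 by edgeR). It passed in 1 of the 25 alternatives run. *Dio2* moved with fat markers within groups. The correlation of its log2 deviations from the group means with those of the summed white and brown fat markers was 0.79 over 16 mice, given as a description, and per 1000 CPM of these markers it was at 15.1 to 23.2 in WT(ND), 11.1 to 27.7 in *Glis3*-Pax8Cre(ND), 27.1 to 35.3 in WT(LID) and 4.98 to 21.5 in *Glis3*-Pax8Cre(LID). On that scale every WT(LID) mouse stood above every WT(ND) mouse, the opposite direction to the level itself (log2 fold change -0.66 in WT mice with the LID, adjusted p = 0.310 by edgeR). The marker sum was at 608 to 1415 CPM in WT(ND) and 317 to 458 CPM in WT(LID). *Ucp1*, 1 of its genes, went from a mean of 260 to 13.1 CPM, so this scale does not give a level per amount of fat. The part of fat in the level of *Dio2* was not tested beyond these ratios.

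Per kb of exon in the GENCODE annotation, *Dio1* was at 204 CPM per kb ± 13.6 (SD, n = 4) in WT(ND) and *Dio2* at 3.02 CPM per kb ± 1.14. The ratio of *Dio1* to *Dio2* counts in single libraries was between 13.5 and 30.03 in WT(ND), between 28.1 and 85.5 in *Glis3*-Pax8Cre(ND), between 95.2 and 121 in WT(LID) and between 28.4 and 230.3 in *Glis3*-Pax8Cre(LID). It did not overlap between WT(ND) and WT(LID), with a difference of 2.30 on the log2 scale (exact permutation test, 2-sided, p = 0.0286, adjusted p = 0.0762 over 8 tests). With 4 mice against 4 the smallest p this test can give is 0.0286, so no adjusted p under 0.05 was reached. The other comparisons of this ratio overlapped, with exact p between 0.0571 and 0.400.

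The stretches before the start sites of both deiodinase genes are shown because these genes differ in level and in response to the diet, and that of *Thrb* because it alone among the promoters examined holds a thyroid hormone half-site. Sequences are the 250 bases before the start site, from RefSeq on GRCm38.p6, which is the build mm10, 5′ to 3′ on the strand of the gene, and lie at chr4:107307169-107307418 (minus strand), chr12:90739039-90739288 (minus strand) and chr14:17660710-17660959 (plus strand). Capitals mark a match to AGGTCA, the half-site of hormone receptors, or to TGACGTCA, the cAMP response element, on either strand.
Dio1: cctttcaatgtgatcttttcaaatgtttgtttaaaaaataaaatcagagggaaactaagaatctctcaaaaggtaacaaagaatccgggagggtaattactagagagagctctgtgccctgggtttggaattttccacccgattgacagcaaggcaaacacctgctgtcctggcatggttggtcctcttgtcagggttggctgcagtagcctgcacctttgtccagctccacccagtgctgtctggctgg
Dio2: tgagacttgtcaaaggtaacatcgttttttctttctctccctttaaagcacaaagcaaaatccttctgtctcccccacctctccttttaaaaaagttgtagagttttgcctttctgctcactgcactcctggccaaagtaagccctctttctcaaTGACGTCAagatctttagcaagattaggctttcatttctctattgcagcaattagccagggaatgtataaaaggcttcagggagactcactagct
Thrb: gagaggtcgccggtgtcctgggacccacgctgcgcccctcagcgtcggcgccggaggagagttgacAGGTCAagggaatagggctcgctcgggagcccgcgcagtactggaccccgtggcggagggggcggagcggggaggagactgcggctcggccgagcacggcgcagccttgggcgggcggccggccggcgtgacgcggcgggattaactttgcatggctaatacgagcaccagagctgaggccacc
Of the 9 genes, 7 have windows in the RefSeq table used, 8 windows in all, 2 of them for *Thrb*. TGACGTCA was found in 1 of the 8, at -95 from the start site of *Dio2*, and in 1.55% of 32851 promoter windows of the same length. This motif was chosen after the sequences had been read. AGGTCA was found in 1 of the 8, at -184 in the upstream window of *Thrb*, and in 14% of all windows. A direct repeat of AGGTCA with 4 bases between both copies was in 0 of the 8 and in 0.0152% of all windows. TGGGGGGT, the core of the site GLIS proteins bind, was in 0 of the 8 and in 1.36% of all windows. These counts describe letters in short windows and say nothing of binding.

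**Figure D2:**
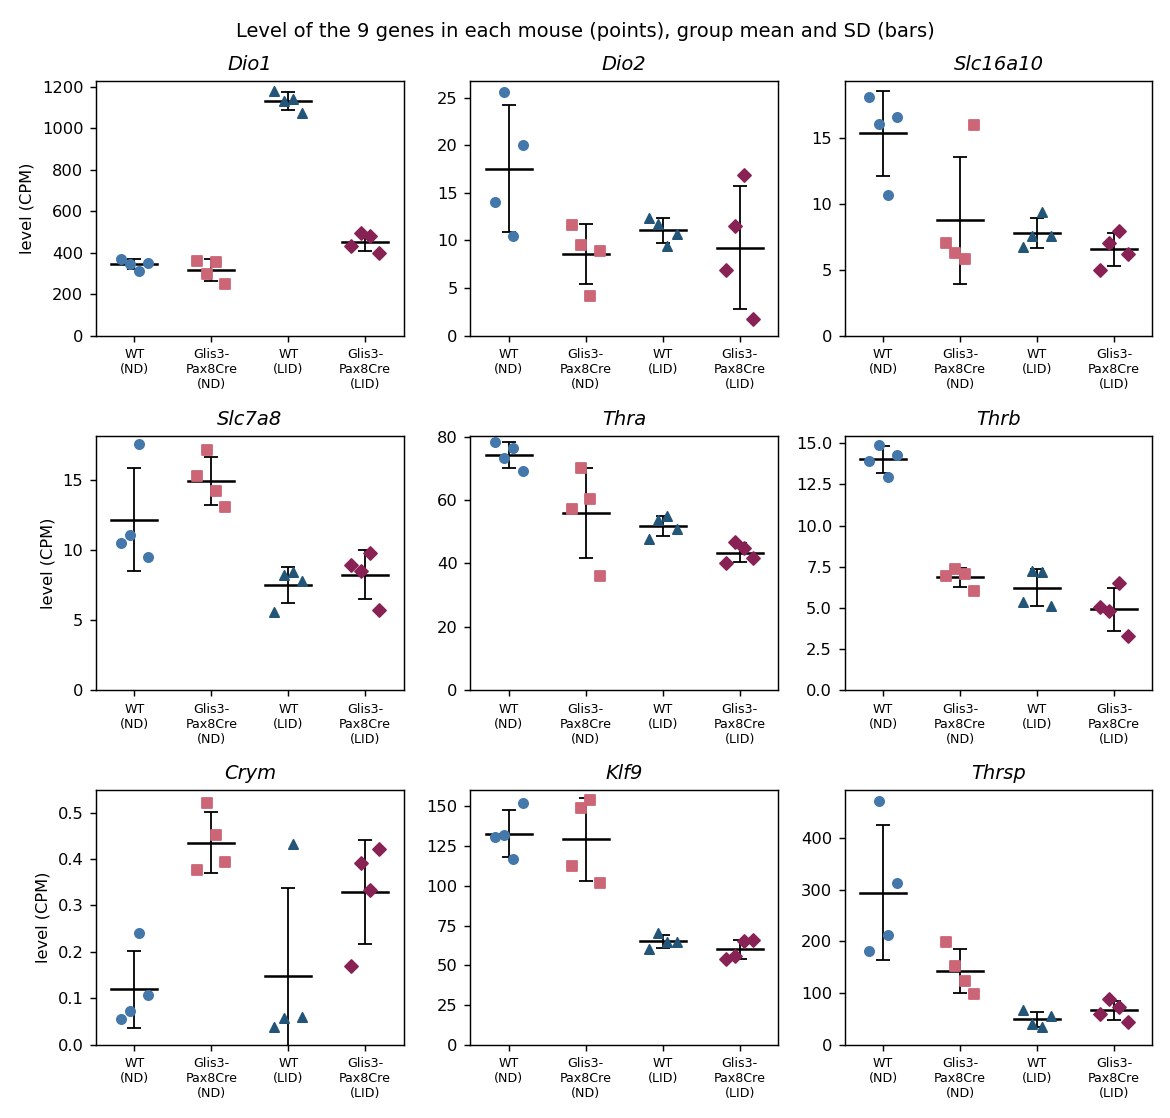
Level in CPM (y axis, linear and from 0, a different range in each panel) of the 9 genes in each of the 16 mice (points, 4 per group), with the group mean and SD (bars, the lower SD bar of *Crym* in WT(LID) ends at the axis). The 4 WT(LID) mice stand above all others for *Dio1*, at 1074 to 1181 CPM, and *Klf9* splits the mice by diet, at 102 CPM or more on the ND and 70.5 CPM or less on the LID.

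Among the transporters, *Slc7a8* fell with the LID in both genotypes. *Slc7a8* (Entrez 50934, chromosome 14, 54722215 to 54781886, minus strand) encodes LAT2, a carrier of amino acids and iodothyronines. The WT mice had 10.6, 11.1, 17.6 and 9.52 CPM on the ND against 5.59, 8.22, 8.45 and 7.81 CPM on the LID, and the *Glis3*-Pax8Cre mice had 15.3, 17.2, 14.2 and 13.1 CPM on the ND against 8.97, 8.49, 9.79 and 5.75 CPM on the LID. The ND and LID mice did not overlap in either genotype. Its log2 fold change with the diet was -0.70 in WT mice (SE 0.20, adjusted p = 0.0116 by edgeR) and -0.86 in *Glis3*-Pax8Cre mice (SE 0.20, adjusted p = 0.00648), and their difference was -0.16 (SE 0.28, adjusted p = 0.771). Without WT(ND) replicate 3, the highest of its group, the change in WT mice was -0.46 (adjusted p = 0.0497 by edgeR). Between genotypes on the ND its log2 fold change was 0.30 (adjusted p = 0.320), and without the same mouse it was 0.54 (adjusted p = 0.0411 by edgeR). That comparison passed in 1 of 25 alternatives. Macrophage markers were higher in *Glis3*-Pax8Cre(ND) than in WT(ND) for 5 of 5 genes, with sums of 203 to 246 CPM against 121 to 180 CPM, and 3 of 5 were lower in *Glis3*-Pax8Cre(LID) against *Glis3*-Pax8Cre(ND). In WT(LID) against WT(ND), where *Slc7a8* fell, 2 of 5 were higher and 0 lower, with sums of 168 to 185 CPM in WT(LID). Within groups the log2 deviations of *Slc7a8* and of the macrophage sum had a correlation of 0.83 over 16 mice, as a description. Per 1000 CPM of these markers *Slc7a8* was at 72.1 to 97.9 in WT(ND), 63.0 to 69.9 in *Glis3*-Pax8Cre(ND), 33.2 to 49.3 in WT(LID) and 38.8 to 50.8 in *Glis3*-Pax8Cre(LID), again without overlap between diets. The part of macrophages in the level of *Slc7a8* was not tested beyond these ratios.

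*Slc16a10* (Entrez 72472, chromosome 10, 40033535 to 40142254, minus strand) encodes MCT10, a carrier of aromatic amino acids and T3. Replicates 1 to 4 had 18.1, 16.1, 10.7 and 16.6 CPM for WT(ND), 7.03, 6.26, 5.84 and 15.99 for *Glis3*-Pax8Cre(ND), 6.75, 7.61, 9.40 and 7.54 for WT(LID) and 5.03, 7.08, 7.99 and 6.22 for *Glis3*-Pax8Cre(LID). WT(ND) stood above both LID groups without overlap, and *Glis3*-Pax8Cre(ND) replicate 4 stood apart from its group. The fall in WT(LID) was 1.97-fold (log2 fold change -0.98 with SE 0.28, adjusted p = 0.0110 by edgeR). On the ND the log2 fold change between genotypes was -0.81 (SE 0.28, adjusted p = 0.0544). Without *Glis3*-Pax8Cre(ND) replicate 4 it was -1.27 (adjusted p = 4.52e-04 by edgeR), the interaction was 1.01 (adjusted p = 0.0145), and the diet effect in *Glis3*-Pax8Cre mice turned from -0.42 to 0.05 (adjusted p = 0.883). Without WT(ND) replicate 3 the adjusted p on the ND was 0.0288, and by DESeq2 it was 0.0224. The genotype effect on the ND passed in 6 of 25 alternatives. In the others it did not, with an adjusted p up to 0.177 by edgeR, and with 1 mouse left out it was as small as -0.65. Within groups the log2 deviations of *Slc16a10* and of the thymocyte sum had a correlation of 0.68 over 16 mice, as a description. Outside the 5 mice named above the sum was only 0.258 to 0.962 CPM, so its deviations come mostly from those 5. *Slc16a10* was highest of its group in the WT(LID) mouse with thymocyte markers, at 9.40 CPM. In the *Glis3*-Pax8Cre(LID) mouse with them it was at 6.22 CPM, below the group mean of 6.58. The part of the 1783 CPM of thymocyte markers of that *Glis3*-Pax8Cre(ND) mouse in its *Slc16a10* level was not tested.

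Both receptor genes fell in WT(LID), and *Thrb* was also lower in *Glis3*-Pax8Cre mice on the ND. *Thrb* (Entrez 21834, chromosome 14, 17660960 to 18038088, plus strand) in replicates 1 to 4 was at 13.9, 14.9, 13.0 and 14.3 CPM for WT(ND), 6.96, 7.38, 7.05 and 6.01 for *Glis3*-Pax8Cre(ND), 5.37, 7.25, 7.17 and 5.11 for WT(LID) and 5.07, 4.83, 6.50 and 3.30 for *Glis3*-Pax8Cre(LID). Every WT(ND) mouse stood above every mouse of the other groups, which overlapped with each other. The change was 2.25-fold down in WT mice with the LID (log2 fold change -1.17 with SE 0.17, adjusted p = 7.25e-05 by edgeR) and 2.05-fold down in *Glis3*-Pax8Cre(ND) against WT(ND) (-1.03, SE 0.17, adjusted p = 9.16e-04). In *Glis3*-Pax8Cre mice the diet effect was -0.47 (SE 0.17, adjusted p = 0.0539), while a block for the replicate number gave -0.49 (adjusted p = 0.0306 by edgeR) with all 16 mice and -0.52 (adjusted p = 0.0718) with the 8 *Glis3*-Pax8Cre mice alone. It also passed without *Glis3*-Pax8Cre(ND) replicate 4 (adjusted p = 0.0375) and without *Glis3*-Pax8Cre(LID) replicate 3 (adjusted p = 0.0140). This diet effect passed in 6 of 26 alternatives, was as small as -0.32, and had an adjusted p up to 0.135 by edgeR. On the LID the log2 fold change between genotypes was -0.34 (adjusted p = 0.155), and leaving out 1 mouse at a time it ran from -0.50 without *Glis3*-Pax8Cre(LID) replicate 3 (adjusted p = 0.0343 by edgeR) to -0.19 without *Glis3*-Pax8Cre(LID) replicate 4 (adjusted p = 0.396). The interaction was 0.70 (SE 0.24, adjusted p = 0.0747 by edgeR), it was 0.69 by DESeq2 (adjusted p = 0.0372), and it was 0.85 without *Glis3*-Pax8Cre(LID) replicate 4 (adjusted p = 0.0165). It passed in 4 of 24 alternatives, was as small as 0.52, and had an adjusted p up to 0.150 by edgeR.

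Summed markers of C cells, the calcitonin cells of the thyroid, stood highest in WT(ND), as *Thrb* did. Their sum was 2446 to 3913 CPM in WT(ND), 1037 to 2226 in *Glis3*-Pax8Cre(ND), 1169 to 1633 in WT(LID) and 1033 to 1813 in *Glis3*-Pax8Cre(LID), and 2 of the 4 markers were lower in WT(LID) and 2 in *Glis3*-Pax8Cre(ND) than in WT(ND). Per 1000 CPM of C-cell markers *Thrb* was at 3.56 to 5.84, 3.13 to 5.80, 3.29 to 5.07 and 2.79 to 6.29 CPM in the same order of groups, which all overlapped. Within groups the log2 deviations of *Thrb* and of the C-cell sum had a correlation of 0.25 over 16 mice, as a description. The median log2 fold change of the 4 markers was -1.10 in WT(LID) and -0.27 in *Glis3*-Pax8Cre(ND), each against WT(ND). The part of C cells in the level of *Thrb* was not tested. Parathyroid markers also fell with the LID, 4 of 4 in each genotype.

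*Thra* (Entrez 21833, chromosome 11, 98741785 to 98769006, plus strand) in replicates 1 to 4 was at 78.2, 73.3, 76.3 and 69.0 CPM for WT(ND), 57.2, 69.9, 60.3 and 36.1 for *Glis3*-Pax8Cre(ND), 47.5, 53.6, 54.8 and 50.9 for WT(LID) and 40.1, 46.7, 44.8 and 41.7 for *Glis3*-Pax8Cre(LID). WT(ND) stood above both LID groups without overlap, and every *Glis3*-Pax8Cre(LID) mouse stood below every WT(LID) mouse. The change in WT(LID) was 1.43-fold down (log2 fold change -0.52 with SE 0.14, adjusted p = 0.00757 by edgeR). On the ND the log2 fold change between genotypes was -0.41 (adjusted p = 0.0524), and the adjusted p was 0.0411 by DESeq2. Leaving out 1 mouse at a time it ran from -0.54 without *Glis3*-Pax8Cre(ND) replicate 2 (adjusted p = 0.0156 by edgeR) to -0.24 without *Glis3*-Pax8Cre(ND) replicate 4, the lowest of its group (adjusted p = 0.0574). The diet effect in *Glis3*-Pax8Cre mice was -0.37 (adjusted p = 0.0669), and -0.54 without *Glis3*-Pax8Cre(ND) replicate 4 (adjusted p = 2.48e-04 by edgeR). Without *Glis3*-Pax8Cre(ND) replicate 2 it was -0.24 (adjusted p = 0.229 by edgeR), and it passed in 3 of 26 alternatives. On the LID the log2 fold change between genotypes was -0.26 (adjusted p = 0.189), and -0.27 without *Glis3*-Pax8Cre(ND) replicate 4 (adjusted p = 0.0143 by edgeR). It passed in 2 of 25 alternatives. The 3′ end of *Thra* overlaps *Nr1d1* on the other strand. Strand was not used in counting, so pairs from the overlap could not be assigned by strand. Whether they were left out of the *Thra* count was not tested.

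Per kb of exon, *Thra* exceeded *Thrb* in every group, at 23.5 CPM per kb ± 1.27 (SD, n = 4) against 2.08 ± 0.119 in WT(ND) and at 13.7 ± 0.943 against 0.731 ± 0.194 in *Glis3*-Pax8Cre(LID). The ratio of *Thra* to *Thrb* counts was between 4.83 and 5.88 in WT(ND), between 6.01 and 9.48 in *Glis3*-Pax8Cre(ND), between 7.4 and 9.96 in WT(LID) and between 6.90 and 12.6 in *Glis3*-Pax8Cre(LID). WT(ND) was below all other mice. The log2 difference was 0.67 for WT(LID) against WT(ND) and 0.59 for *Glis3*-Pax8Cre(ND) against WT(ND) (exact permutation test, 2-sided, p = 0.0286 each, adjusted p = 0.0762 over 8 tests). The other comparisons of this ratio overlapped, with exact p of 0.486 and 0.657.

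**Figure D3:**
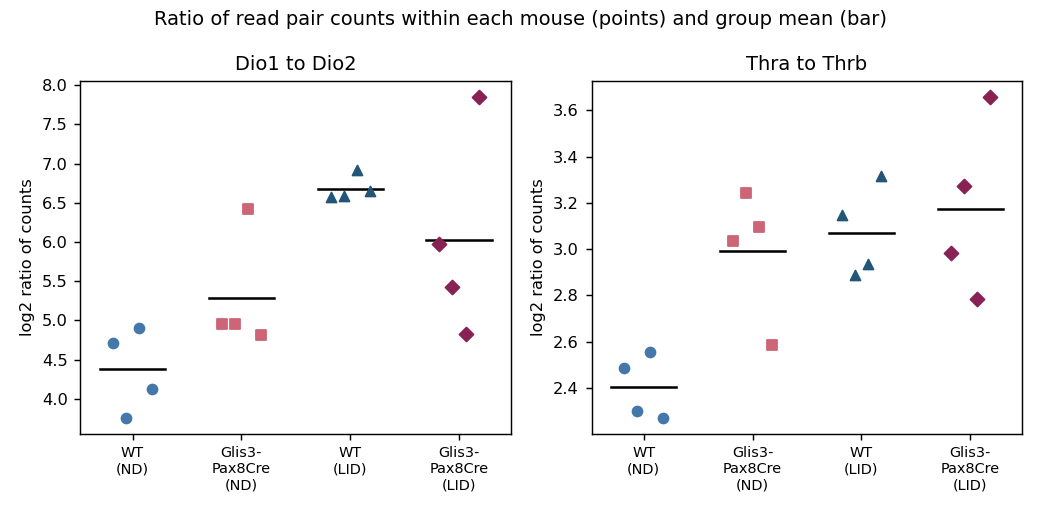
Log2 ratio of the counts of *Dio1* to *Dio2* (left) and of *Thra* to *Thrb* (right) within each mouse (points, 4 per group), with the group mean (bar). WT(ND) lies lowest in both panels, with geometric mean ratios of 20.8 and 5.29, and *Glis3*-Pax8Cre(LID) spreads most for *Dio1* to *Dio2*, from 28.4 to 230.3.

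*Crym* (Entrez 12971, chromosome 7, 120186384 to 120201988, minus strand) was near the limit of detection, with 3 to 86 read pairs per mouse. Replicates 1 to 4 had 0.0561, 0.0733, 0.240 and 0.108 CPM for WT(ND), 0.376, 0.520, 0.451 and 0.393 for *Glis3*-Pax8Cre(ND), 0.0391, 0.0574, 0.431 and 0.0600 for WT(LID) and 0.168, 0.390, 0.334 and 0.422 for *Glis3*-Pax8Cre(LID). The ND genotypes did not overlap, and WT(LID) replicate 3 stood at the level of the *Glis3*-Pax8Cre mice. *Crym* was 3.71-fold higher in *Glis3*-Pax8Cre(ND) than in WT(ND) (log2 fold change 1.89 with SE 0.62, adjusted p = 0.0436 by edgeR). This call was lost when any one of 10 mice was left out, WT(ND) replicates 1, 2 or 4, any of the *Glis3*-Pax8Cre(ND) replicates 1 to 4, or *Glis3*-Pax8Cre(LID) replicates 2, 3 or 4, with an adjusted p between 0.0515 and 0.114 and a log2 fold change between 1.69 and 1.96. On the LID the log2 fold change was 1.21 (adjusted p = 0.165), and without WT(LID) replicate 3 it was 2.62 (adjusted p = 0.00162 by edgeR) and the diet effect in WT mice turned from 0.25 to -1.16 (adjusted p = 0.0922).

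*Klf9* and *Thrsp*, the hormone-responsive genes, both fell with the LID. *Klf9* (Entrez 16601, chromosome 19, 23141226 to 23166911, plus strand) encodes a zinc finger transcription factor. Replicates 1 to 4 had 131, 132, 117 and 152 CPM for WT(ND), 112, 149, 154 and 102 for *Glis3*-Pax8Cre(ND), 60.03, 70.5, 64.5 and 64.9 for WT(LID) and 53.8, 56.1, 65.0 and 65.6 for *Glis3*-Pax8Cre(LID). The diets did not overlap in either genotype and the genotypes overlapped on either diet. The fall was 2.05-fold in WT mice (log2 fold change -1.03 with SE 0.13, adjusted p = 1.57e-05 by edgeR) and 2.15-fold in *Glis3*-Pax8Cre mice (-1.11, SE 0.13, adjusted p = 2.83e-05). Their difference was -0.07 (SE 0.18, adjusted p = 0.839), and the genotype effects were -0.04 on the ND and -0.11 on the LID (adjusted p = 0.862 and 0.554). Both signs turned when library size alone was used for scaling, which moved the median of all genes by 0.12 and 0.15 in these comparisons.

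*Thrsp* (Entrez 21835, chromosome 7, 97412933 to 97417550, minus strand) encodes Spot 14, a nuclear protein of fat synthesis. Replicates 1 to 4 had 181, 471, 211 and 313 CPM for WT(ND), 198, 152, 123 and 98.7 for *Glis3*-Pax8Cre(ND), 67.0, 39.1, 34.5 and 55.3 for WT(LID) and 58.8, 89.0, 72.4 and 44.4 for *Glis3*-Pax8Cre(LID). The diets did not overlap in either genotype, and the genotypes overlapped on both diets. The fall was 6.01-fold in WT mice (log2 fold change -2.59 with SE 0.34, adjusted p = 3.59e-05 by edgeR), the largest change of the 9 genes in the 4 comparisons. In *Glis3*-Pax8Cre mice it was 2.16-fold (-1.11, SE 0.32, adjusted p = 0.0216), a call lost without replicate 1 of *Glis3*-Pax8Cre(ND) or replicates 1 or 4 of *Glis3*-Pax8Cre(LID) (adjusted p between 0.0523 and 0.0617). On the ND *Thrsp* was 2.06-fold lower in *Glis3*-Pax8Cre mice (-1.04, SE 0.32, adjusted p = 0.0358), a call lost without WT(ND) replicates 2 or 4 or *Glis3*-Pax8Cre(ND) replicates 2, 3 or 4 (adjusted p between 0.0568 and 0.127). The interaction was 1.47 (SE 0.45, adjusted p = 0.0487 by edgeR), close to the threshold, and was lost in 17 of 24 alternatives, among them the omission of any one of WT(ND) replicates 2 and 4, *Glis3*-Pax8Cre(ND) replicates 2 to 4, WT(LID) replicates 2 to 4 and *Glis3*-Pax8Cre(LID) replicates 1 to 3 (adjusted p between 0.0657 and 0.104).

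Fat markers moved with *Thrsp* in WT mice with the LID and in the interaction, but not with the diet in *Glis3*-Pax8Cre mice. In WT(LID) against WT(ND), 5 of 6 white fat and 4 of 5 brown fat markers were lower, and in the interaction 5 of 6 and 3 of 5 were higher. In *Glis3*-Pax8Cre(LID) against *Glis3*-Pax8Cre(ND), where *Thrsp* fell, 1 of 6 white fat markers was higher, 0 were lower, and 0 of 5 brown fat markers were called. Between genotypes 3 of 6 and 1 of 5 were lower in *Glis3*-Pax8Cre mice on the ND, and 2 of 6 and 1 of 5 were higher on the LID. All 11 were detected in every group. The summed white and brown fat markers were at 608 to 1415 CPM in WT(ND), 322 to 634 in *Glis3*-Pax8Cre(ND), 317 to 458 in WT(LID) and 349 to 788 in *Glis3*-Pax8Cre(LID). Within groups the log2 deviations of *Thrsp* and of this sum had a correlation of 0.92 over 16 mice, as a description. Per 1000 CPM of fat markers *Thrsp* was at 257 to 333 CPM in WT(ND) and 296 to 326 in *Glis3*-Pax8Cre(ND), which overlapped. On the LID it was at 109 to 165 in WT mice and 92.4 to 127 in *Glis3*-Pax8Cre mice, below every ND mouse. Per 1000 CPM of these markers the diets stayed apart in both genotypes and the genotypes overlapped on both diets. A large part of the sum in WT(ND) came from *Ucp1* and *Pck1*, at means of 260 and 243 CPM. In WT(LID) their means were 13.1 and 100 CPM, and both genes are also listed below as hormone-responsive. This scale therefore does not give a level per amount of fat. The part of fat in the level of *Thrsp* was not tested beyond these ratios.

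**Figure D4:**
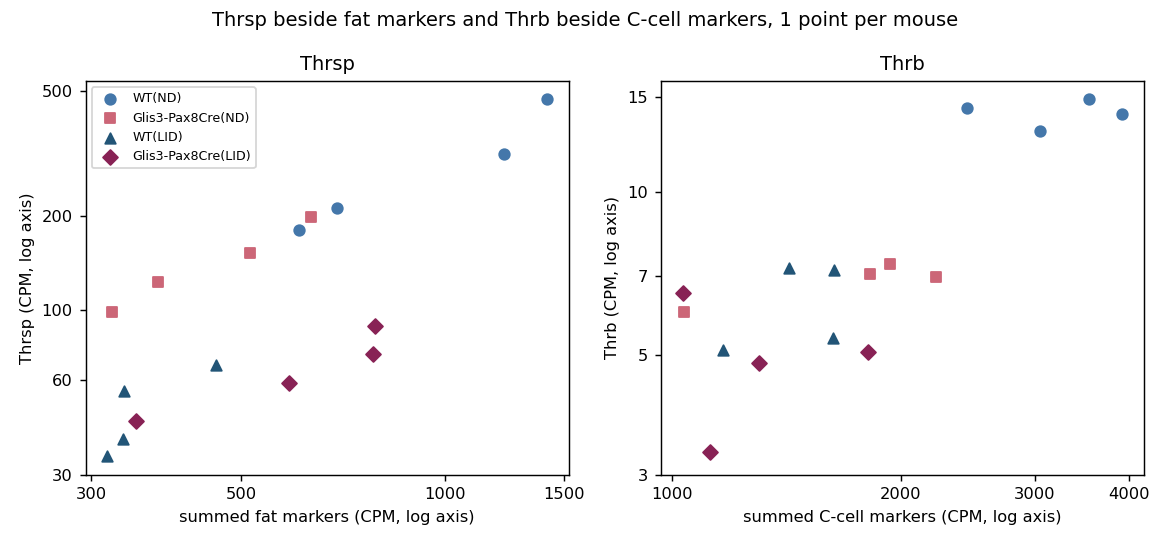
Left, *Thrsp* against the summed white and brown fat markers, and right, *Thrb* against the summed C-cell markers, in CPM on log axes with 1 point per mouse. *Thrsp* rises with the fat markers along separate bands for the ND and LID mice, and the 4 WT(ND) mice are highest on both axes for *Thrb*, at 13.0 to 14.9 CPM.

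Markers of other cells were set beside *Dio1* too. Endothelial markers were higher in WT(LID) than in WT(ND) for 5 of 5 genes and lower in *Glis3*-Pax8Cre mice than in WT mice on the LID for 4 of 5. Per 1000 CPM of endothelial markers *Dio1* was at 506 to 721 CPM in WT(ND), 333 to 543 in *Glis3*-Pax8Cre(ND), 764 to 898 in WT(LID) and 635 to 731 in *Glis3*-Pax8Cre(LID). The medians were 658, 444, 811 and 675 in the same order of groups. On this scale the median difference with the diet was smaller in WT mice than in *Glis3*-Pax8Cre mice, the reverse of the order in CPM, and no difference on it was tested. Per 1000 CPM of the 6 follicular markers, a sum made up mostly of *Tg*, it was at 1.19 to 1.70 in WT(ND), 1.60 to 2.86 in *Glis3*-Pax8Cre(ND), 3.44 to 4.96 in WT(LID) and 2.91 to 5.08 in *Glis3*-Pax8Cre(LID). On that scale the diets did not overlap in either genotype and the LID genotypes overlapped. *Tg* itself gave 7.87% to 13.2% of pairs in *Glis3*-Pax8Cre(LID) against 19.6% to 26.8% in WT(LID). Of the 6 follicular markers, 3 were higher and 1 was lower in *Glis3*-Pax8Cre mice than in WT mice on the LID. The sum follows *Tg*, so this scale does not give a level per follicular cell.

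The order of the group means put WT(ND) first for *Dio2*, *Slc16a10*, *Thra*, *Thrb*, *Klf9* and *Thrsp*, WT(LID) first for *Dio1*, and *Glis3*-Pax8Cre(ND) first for *Slc7a8* and *Crym*. Neighbours in the order that differed at an adjusted p under 0.05 were WT(LID) above *Glis3*-Pax8Cre(LID) and *Glis3*-Pax8Cre(LID) above WT(ND) for *Dio1* (adjusted p = 0.00977 by edgeR for the latter, where 45.2% of all genes differed). For *Klf9* they were *Glis3*-Pax8Cre(ND) above WT(LID) (adjusted p = 2.70e-05, where 37.5% of all genes differed). For *Slc7a8* they were WT(ND) above *Glis3*-Pax8Cre(LID) (adjusted p = 0.0326 by edgeR), for *Thrb* WT(ND) above *Glis3*-Pax8Cre(ND), and for *Thrsp* WT(ND) above *Glis3*-Pax8Cre(ND) above *Glis3*-Pax8Cre(LID). No neighbours passed for *Dio2*, *Slc16a10*, *Thra* and *Crym*.

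The genes whose log2 CPM followed each of the 9 most closely over the 16 mice, out of 11675 candidates with a mean of at least 5 CPM, differed from gene to gene. For *Dio1* they were *Adgra2*, *Fbln2* and *Sod3* (Pearson r of 0.984, 0.983 and 0.982), for *Klf9* *Ccdc141*, *Lrp3* and *Neurl3* (0.970, 0.970 and 0.949), and for *Thrsp* *Pnpla3*, *Pfkl* and *Nat8l* (0.975, 0.970 and 0.967). For *Thra* they included *Hip1r* and *Hs1bp3* (0.961 and 0.955), and for *Thrb* *5330417C22Rik* (0.945). For *Slc7a8* they were *Cx3cr1*, *Klhl7* and *Cckar* (0.911, 0.907 and 0.903), for *Slc16a10* *Rhot2*, *Dhx16* and *Snx30* (0.935, 0.918 and 0.878), for *Crym* *Asrgl1*, *Fam163a* and *Il10ra* (0.862, 0.855 and 0.853), and for *Dio2* *Hk2*, *Mfn2* and *Plpbp* (0.832, 0.802 and 0.798). These are descriptions over mice that include the group differences. Among the 9, *Thra* and *Thrb* (0.84) and *Klf9* and *Thrsp* (0.81) followed each other most closely.

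Other genes of thyroid hormone handling were examined as 5 lists of 48 genes, of which 41 were tested. In WT(LID) against WT(ND) 8 of the 41 rose and 12 fell, where 20.9% and 20.8% of all genes did. In *Glis3*-Pax8Cre(LID) against *Glis3*-Pax8Cre(ND) 5 rose and 7 fell, against 13.1% and 12.3% of all genes. Between genotypes on the ND 2 were higher and 7 lower in *Glis3*-Pax8Cre mice, against 10.3% and 9.25%, and on the LID 5 were higher and 11 lower, against 14.9% and 15.4%. In the interaction 4 were higher and 3 lower, against 4.43% and 7.41%. *Dio3*, which encodes the inactivating deiodinase, had mean levels of 0.0637 CPM in WT(ND) and 0.0396 CPM in WT(LID), from 43 and 11 counts in libraries of different depth. In *Glis3*-Pax8Cre mice its means were 0.0375 CPM on the ND and 0.0106 CPM on the LID, from 11 and 3 counts. It was not tested, nor were *Slco1c1*, *Slco1a1*, *Slc17a4*, *Serpina7*, *Alb* and *G6pc*. *Serpina7* and *G6pc* had 0 counts in *Glis3*-Pax8Cre(LID).

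Of 12 transporter genes 9 were tested. Per kb of exon the transporters of the set were at 2.34 CPM per kb ± 0.493 (SD, n = 4) for *Slc16a10* and 2.99 ± 0.898 for *Slc7a8* in WT(ND). *Slc3a2*, the heavy chain that LAT transporters such as LAT2 need at the membrane, rose with the LID in both genotypes (log2 fold changes 0.71 and 0.76, adjusted p = 0.00916 and 0.0114 by edgeR), the opposite direction to *Slc7a8*. *Slco4a1* was highest in WT(LID), at 3.74 CPM ± 0.398 (SD, n = 4) against 0.578 ± 0.197 in *Glis3*-Pax8Cre(LID) (log2 fold change -2.70, adjusted p = 0.00130 by edgeR), and *Slco3a1* and *Slco2b1* were lower there as well (-0.82 and -0.80). *Slco2b1* also fell with the LID in both genotypes, by 0.37 and 1.05 on the log2 scale in WT and *Glis3*-Pax8Cre mice, with an interaction of -0.68 (adjusted p = 0.0147 by edgeR). On the ND *Slco1b2* had a mean of 0.820 CPM in *Glis3*-Pax8Cre mice against 0.0635 CPM in WT mice (264 and 23 counts), on the LID the means were 0.462 against 0.0190 CPM (133 and 5 counts), and it was called higher in both genotype comparisons (adjusted p = 0.00375 and 0.00199 by edgeR).

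Of 8 genes of deiodination and selenoprotein synthesis 7 were tested. *Iyd*, which recovers iodide from iodotyrosines, rose with the LID in both genotypes (log2 fold changes 0.81 and 0.49, adjusted p = 1.48e-04 and 0.0116 by edgeR). *Sephs2*, which makes the selenium donor for selenoproteins such as the deiodinases, was higher in *Glis3*-Pax8Cre(LID) mice, by 0.71 on the log2 scale against WT(LID) and by 0.41 against *Glis3*-Pax8Cre(ND) (adjusted p = 1.55e-04 and 0.0114 by edgeR). The other 5 tested genes passed in no comparison by edgeR. Of the plasma carriers *Ttr* was tested, at 0.779 CPM ± 0.228 (SD, n = 4) in WT(ND) and 0.200 ± 0.0375 in *Glis3*-Pax8Cre(LID), and was called lower in all 4 comparisons.

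All 13 receptor partners and coregulators were tested, and 2 rose and 5 fell in WT(LID), against 20.9% and 20.8% of all genes. *Rxrg*, a heterodimer partner of the receptors, fell by 1.72 on the log2 scale there (adjusted p = 0.00187 by edgeR), from a mean of 2.38 CPM to 0.725 CPM. In *Glis3*-Pax8Cre mice its diet effect was 0.19 (adjusted p = 0.740), and the interaction was 1.90 (adjusted p = 0.0278 by edgeR). The coactivator gene *Ncoa2* was higher in *Glis3*-Pax8Cre mice on both diets (log2 fold changes 0.54 and 0.75, adjusted p = 0.0156 and 8.85e-04 by edgeR). *Tbl1xr1*, a subunit of the corepressor complex, fell with the LID in both genotypes (-0.56 and -0.40), and so did the coactivator gene *Ncoa3* (-0.29 and -0.41). Of 12 genes that respond to thyroid hormone in other tissues 11 were tested. In WT(LID) 3 of them rose and 4 fell, against 20.9% and 20.8% of all genes. In *Glis3*-Pax8Cre(LID) against *Glis3*-Pax8Cre(ND) 1 rose and 2 fell, against 13.1% and 12.3%. Between genotypes 0 were higher and 5 lower in *Glis3*-Pax8Cre mice on either diet, against 10.3% and 9.25% on the ND and 14.9% and 15.4% on the LID. *Hr*, a corepressor gene induced by T3 in brain, was lower in all 4 comparisons, with log2 fold changes of -1.14 in WT(LID), -1.63 in *Glis3*-Pax8Cre(LID) against *Glis3*-Pax8Cre(ND), -0.84 between genotypes on the ND and -1.33 on the LID (adjusted p between 7.97e-05 and 0.0107 by edgeR). In WT(LID) *Ucp1* (-4.30), *Fasn* (-1.76) and *Pck1* (-1.27) fell like *Thrsp*, while *Nrgn* (1.11), *Gpd2* (0.58) and *Atp2a2* (0.50) rose. Between genotypes on the LID, *Nrgn* (-1.34) and *Gpd2* (-1.26) were lower in *Glis3*-Pax8Cre mice. *Gpd2* was lower in them on the ND too (-0.86, adjusted p = 0.00151 by edgeR). The interaction was positive for *Pck1* (2.13) and *Fasn* (1.39), as for *Thrsp*, and negative for *Nrgn* (-1.46). *Ucp1* and *Pck1* are also among the fat markers used above.

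**Figure D5:**
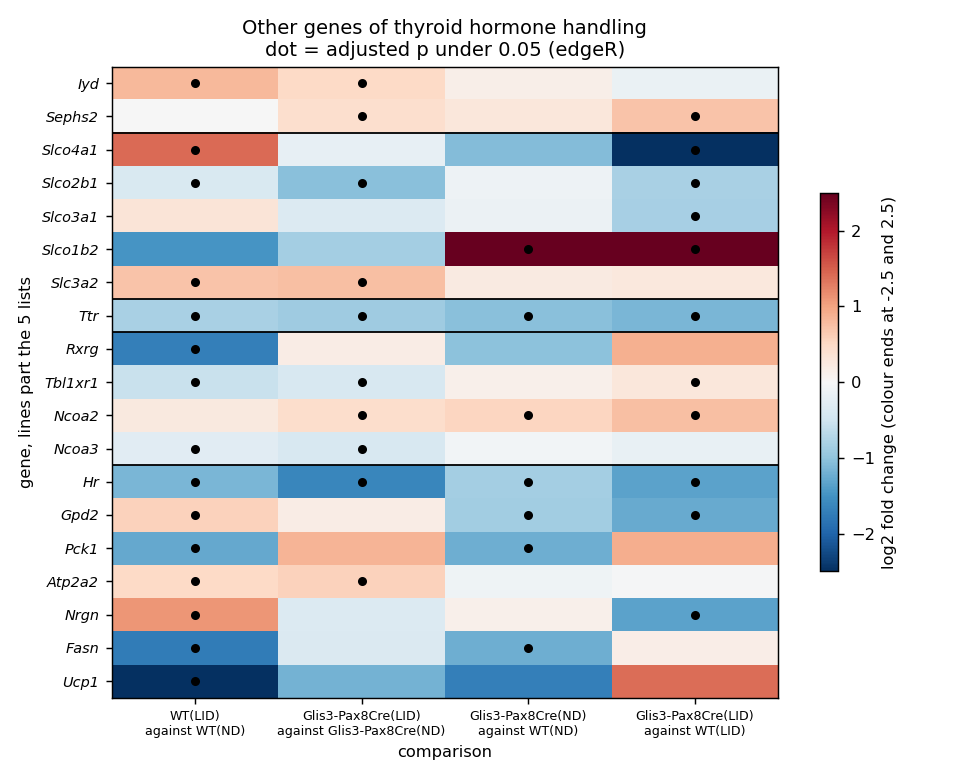
Log2 fold change (colour, red for higher and blue for lower, with the ends of the scale also standing for larger values) of the 19 genes of the 5 lists named in the text (rows) in 4 comparisons (columns), with a dot at an adjusted p under 0.05 by edgeR. *Ttr* and *Hr* carry dots on blue in all 4 columns.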

How the data were processed

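RNA-Seq was measured in 16 thyroids, 4 mice per group, with groups and replicate numbers taken from the sample labels. The authors kept read pairs with a mean quality score above a limit, aligned them to mm10 with STAR 2.5 and counted pairs on RefSeq gene models with featureCounts 1.5.0-p1 without using strand. The deposited counts are whole read pairs per gene, not normalized. The sources used here do not tie the sequencing instrument to single libraries, so it could not be fitted, and name both a stranded and an unstranded library kit.

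Low-count genes were removed with filterByExpr, which left 16630 of 25611 genes. Libraries were scaled by TMM, and a quasi-likelihood model with the 4 groups and all 16 mice was fitted with edgeR 4.0.16 (R 4.3.3, limma 3.58.1). P-values were adjusted by the Benjamini-Hochberg method over all genes tested, and calls were made at an adjusted p under 0.05. Because the fit shares 1 estimate of the spread, leaving out a mouse of another group can change an adjusted p. CPM uses the TMM-scaled library size, log2 CPM a prior count of 2, and the limit for a count of 0 is 3 counts. Count ratios were compared by exact 2-sided permutation tests. Levels per kb used the union of exons. Gene symbols and mm10 positions are those of the count table, and promoter sequences come from RefSeq, 250 bases before the start site. The genes, the lists of other genes and the marker lists were chosen with earlier results of these data known. Besides the 9 genes, the text names up to 2 called genes per list, direction and comparison with the largest log2 fold change, listed genes at 0 counts, and for each of the 9 the 3 genes with the highest correlation. The choice of markers to set beside a gene, and the naming of *Dio3*, *Ncoa3* and the untested genes, were taken up after the values had been seen. Some genes that this rule picks are not reported here.

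Replicate numbers are shared between groups. In the comparison of diets in *Glis3*-Pax8Cre mice every pair of mice with the same number deviated together from the group means (r of 0.21 to 0.65 across genes), so a fit with the replicate number as a block is given there where it changes a call. Pairs of mice within a group differed by more than sampling noise, with a chi-square per degree of freedom of at least 33.0 over 24 pairs. The labels do not say that samples with the same number share a litter or a day, and p-values set group differences against the spread between these mice. The alternatives were DESeq2 1.42.0, other scalings and filters, a fit to the 8 mice of a comparison, the replicate block, a stricter threshold and leaving out each mouse. The omission of the 5 mice with thymocyte markers was added after the data had been seen. The fit was tested on simulated data.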

Additional observations from a re-analysis of the deposited data

Results flagged for a closer look

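*Slc16a10* in *Glis3*-Pax8Cre(ND) replicate 4 stood apart from the other 3 mice of its group, at 15.99 CPM. *Crym* in WT(LID) replicate 3 stood apart in the same way, at 0.431 CPM. Both mice are among the 5 with thymocyte markers, at 1783 and 142 CPM. Their summed skeletal muscle markers were at 368 and 983 CPM, the latter the highest of WT(LID). Among other mice with thymocyte markers, WT(ND) replicates 1 and 2 had the lowest *Crym* of their group, at 0.0561 and 0.0733 CPM. *Glis3*-Pax8Cre(LID) replicate 4 had the highest of its group, at 0.422 CPM. The part of thymocytes or muscle in either level was not tested. Of 36 groups of 4 mice checked, 2 held a mouse that stood apart, and chance flags about 1 in 20 groups. The diet effect differed between genotypes by the interaction test for *Dio1*, by -1.20 on the log2 scale, and for *Thrsp*, by 1.47. The *Dio1* interaction passed in all alternatives run, while that of *Thrsp* was lost in 17 of 24.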

How the results depend on the processing

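Of 1119 values of the 9 genes under alternatives, 1024 kept their direction and side of the threshold, 40 no longer passed, 32 newly passed and 23 turned direction, and except where named the cause was not tested. Many of these values leave out a mouse in neither group of the comparison. Such an omission acts only through the filter, the scaling and the shared spread, so the share that kept is not a measure of robustness. The count of the 9 genes called was 7 with the diet in WT mice, 3 between genotypes on the ND, 1 on the LID, 4 with the diet in *Glis3*-Pax8Cre mice and 2 in the interaction. At an adjusted p under 0.01 with a fold change over 2 these counts were 4, 1, 1, 1 and 1, a stricter rule by construction. On the ND DESeq2 called 5, the replicate block called 5, and leaving out 1 mouse gave 1 to 5. On the LID the 8 mice alone gave 2, the replicate block 2, *Crym* being added as higher (1.51, adjusted p = 0.0448 by edgeR), and leaving out 1 mouse 1 to 2. In the interaction RLE scaling, *Tg* left out and no filter gave 1 each, and leaving out 1 mouse gave 1 to 3. Leaving out 1 mouse gave 7 in every case for the diet in WT mice and 3 to 6 for the diet in *Glis3*-Pax8Cre mice. Without the 5 mice with thymocyte markers the counts were 8, 2, 2, 5 and 1. In *Glis3*-Pax8Cre mice the replicate block gave 5 with the diet, *Thrb* being added, and 4 when fitted to those 8 mice alone, and it changed no other call there. The other comparisons share only a number, with r of -0.52 to 0.10 between genotypes on the LID, -0.37 to -0.03 on the ND and -0.17 to 0.14 for the diet in WT mice, and 0, 0 and 1 of 8 mice correlated best with their own number. Directions turned for values whose adjusted p was above 0.05 in the fit reported. With library size alone as the scaling, which moved the median of all genes by -0.16, 0.12, 0.15 and -0.13 in the order of the first 4 comparisons, *Klf9* turned to 0.076 on the ND and 0.035 on the LID and *Dio2* to -0.052 with the diet in *Glis3*-Pax8Cre mice. *Dio2* turned there to -0.19 with the replicate block in the 8 mice, -0.11 without *Glis3*-Pax8Cre(ND) replicate 3 and -0.36 without *Glis3*-Pax8Cre(LID) replicate 3, and on the LID to 0.082 without *Glis3*-Pax8Cre(LID) replicate 4. With 1 mouse left out it ranged from -0.36 to 0.46 with that diet and from -0.73 to 0.082 on the LID. *Klf9* turned on the ND to 0.043 without WT(ND) replicate 4 and to 0.022 and 0.067 without *Glis3*-Pax8Cre(ND) replicates 1 and 4, and in the interaction to 0.0019 and 0.022 without *Glis3*-Pax8Cre(ND) replicates 2 and 3. Without *Glis3*-Pax8Cre(ND) replicate 4 *Slc16a10* turned to 0.046 with the diet in *Glis3*-Pax8Cre mice (range with 1 mouse left out -0.57 to 0.046) and *Thra* to -0.027 in the interaction (-0.027 to 0.28). Without WT(LID) replicate 3 *Crym* turned to -1.16 with the diet in WT mice (range with 1 mouse left out -1.16 to 0.74) and 0.72 in the interaction (-1.19 to 0.72). Without the 5 mice with thymocyte markers *Crym* turned to -1.61 (adjusted p = 0.0356 by edgeR) and 0.97 there, *Dio1* to 0.023 and *Klf9* to 0.040 on the ND, *Dio2* to 0.012 on the LID, *Slc16a10* to 0.079 with the diet in *Glis3*-Pax8Cre mice and *Slc7a8* to 0.13 in the interaction. Of all genes 6943, 3252, 5028, 4223 and 1969 were called in the 5 comparisons, and 2075, 690, 1319, 832 and 603 at the stricter rule. On the ND that count was 1653 in the 8 mice alone, 2153 and 2053 without WT(ND) replicates 1 and 4 and 1038 without the 5 mice, with the diet in *Glis3*-Pax8Cre mice it was 2374 in the 8 mice alone, and in the interaction 1191 without the 5 mice. The ratio of *Dio1* to *Dio2* differed by 2.10 to 2.48, 0.53 to 1.08, -1.27 to -0.26 and 0.13 to 1.13 and that of *Thra* to *Thrb* by 0.59 to 0.73, 0.50 to 0.72, -0.06 to 0.23 and 0.02 to 0.31 on the log2 scale with 1 mouse left out, in the order of the first 4 comparisons. Depth limits *Crym*, with 3 to 86 counts per mouse, which did not enter the fit to genes with at least 10 counts in every mouse.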
